A study of Mus musculus with 50 samples.

Results

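The 10 genes described here iron in the body, and were followed through every RNA library of a mouse study of kidney and liver aging. They were Hamp, Hfe, Tfr2, Tmprss6 and Bmp6, which make or set the iron hormone hepcidin, Trf and Tfrc, which carry iron in blood and take it into cells, and Slc40a1, Fth1 and Ftl1, which export or store it. All 10 were rows of the gene count table, out of 24984 genes, and were taken by name, with no threshold on their values. The RNA came from C57BL/6 mice. The study's methods describe the young and aged animals as female, and do not describe the DMSO and 3C animals or the fibroblasts. Untreated kidney and liver were taken at 2.5 months (young) and at 23 to 25 months (old), with 4 libraries in each of the 4 groups. Kidney and liver of animals aged 20 to 21 months were taken after DMSO or after an agent that the labels call only 3C, again with 4 libraries a group. Skin fibroblasts labelled P9 were cultured with DMSO or 3C in 3 libraries each. Open chromatin was mapped by ATAC-seq, which tags accessible DNA with a transposase, in 3 libraries each of untreated young and old kidney and liver. Whether same-group libraries came from separate animals is not stated in the labels, so p-values measure the spread between libraries.

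Hepcidin, encoded by Hamp, is a peptide that the liver secretes into blood. It binds ferroportin, the Slc40a1 product and the known cellular iron exporter, and causes its loss from the cell surface, so that less iron enters plasma from the gut and from macrophages. Hepatocytes raise Hamp when the endothelial ligand BMP6 signals through SMAD proteins, when HFE and transferrin receptor 2 report iron-laden transferrin, and when inflammation acts through STAT3. The protease matriptase-2, from Tmprss6, lowers Hamp by cutting the BMP co-receptor hemojuvelin. Inside cells, iron regulatory proteins bind short RNA hairpins called iron-responsive elements: in a 5′ untranslated region they hold back translation, as in ferritin and ferroportin, and in the 3′ untranslated region of Tfrc they protect the transcript from decay.

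The iron-responsive elements of the members can be read in their transcripts. A search of GENCODE vM21 transcripts for the hairpin (an unpaired C, 5 base pairs and the loop CAGTGN) found 1 element in the 5′ untranslated region of each of Fth1, Ftl1 and Slc40a1 and 4 in the 3′ untranslated region of Tfrc, and none in the other 6 members. Across 20636 protein-coding genes of the count table, 0.136% held a match in a 5′ and 0.611% in a 3′ untranslated region. The 3 elements of the 5′ end and the first of Tfrc are shown on the transcribed strand, with the loop in capitals, because the same hairpin sits at opposite ends of the storage and export genes and of the uptake gene. Fth1 (GRCm38 chr19:9982731-9982760, plus strand), Ftl1 (chr7:45459779-45459808, minus strand), Slc40a1 (chr1:45925465-45925494, minus strand) and Tfrc (chr16:32631218-32631247, plus strand) read:
Fth1: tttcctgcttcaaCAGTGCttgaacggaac
Ftl1: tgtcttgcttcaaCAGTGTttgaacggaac
Slc40a1: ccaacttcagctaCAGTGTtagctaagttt
Tfrc: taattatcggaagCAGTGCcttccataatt

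Hamp has a close paralog on chromosome 7, Hamp2, which is read beside it below. The RefSeq promoter table held 7 of the 10 members (not Tmprss6, Slc40a1 or Trf) and Hamp2. Upstream windows of 250 bases were searched on both strands for GGCGCC, the core of BMP-responsive elements, and for TTCNNNGAA, the STAT motif. Hamp (GRCm38.p6 chr7:30944030-30944279, minus strand) held both, at 109 and 97 bases before its start, whereas Hamp2 (chr7:30924182-30924431, minus strand) held only the STAT motif. The windows are shown because this pair is compared in every liver, with motif matches in capitals:
Hamp: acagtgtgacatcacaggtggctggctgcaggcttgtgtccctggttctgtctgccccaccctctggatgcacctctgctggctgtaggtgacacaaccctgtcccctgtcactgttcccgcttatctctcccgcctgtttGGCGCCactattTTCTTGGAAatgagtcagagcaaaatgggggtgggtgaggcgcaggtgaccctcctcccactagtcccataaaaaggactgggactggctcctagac
Hamp2: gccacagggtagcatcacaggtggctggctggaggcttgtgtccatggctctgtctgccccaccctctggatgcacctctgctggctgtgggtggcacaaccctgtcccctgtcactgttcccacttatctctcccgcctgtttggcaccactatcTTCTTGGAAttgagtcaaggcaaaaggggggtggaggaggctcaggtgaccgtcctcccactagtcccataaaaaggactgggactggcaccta
Aligned end to end, the windows were identical in 89.7% of columns. Within GGCGCC the difference was G4A, counted from 1 at the first base of the motif in Hamp, and the STAT motif held 0 differences. Of 32851 promoter windows, 9.59% held GGCGCC, 7.02% held TTCNNNGAA and 0.368% held both. Among the other members, Tfrc alone matched, with GGCGCC 89 bases before the upstream of its 2 listed starts.

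Library totals ran from 14.2 M to 43.7 M counts. Levels are given as CPM, counts scaled to library size with TMM factors over the 38 RNA libraries, as mean ± SD. Fold changes are log2 values ± SE from edgeR's quasi-likelihood test, with p adjusted over all genes tested in a comparison by Benjamini-Hochberg, and a gene was called at adjusted p under 0.05. Defining markers matched each labelled tissue: the summed level of 10 hepatocyte markers was 129400 to 382400 CPM in livers, 104.8 to 158.9 CPM in young kidneys and 3031 CPM in old kidney replicate 2, whose hepatocyte markers were far above those of the other old kidneys. As a share of each library's total counts without TMM factors, these markers stood at a median 2.57% of their old liver mean in that library and at 0.049% to 0.0918% in the other 3 old kidneys. With TMM factors the medians were 1.05% and 0.0203% to 0.0465%. Calls with age in kidney are given with and without old kidney replicate 2, and the other old kidney values without it where they moved. In bulk tissue, fewer cells of a type and less RNA per cell cannot be told apart.

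**Figure D1:**
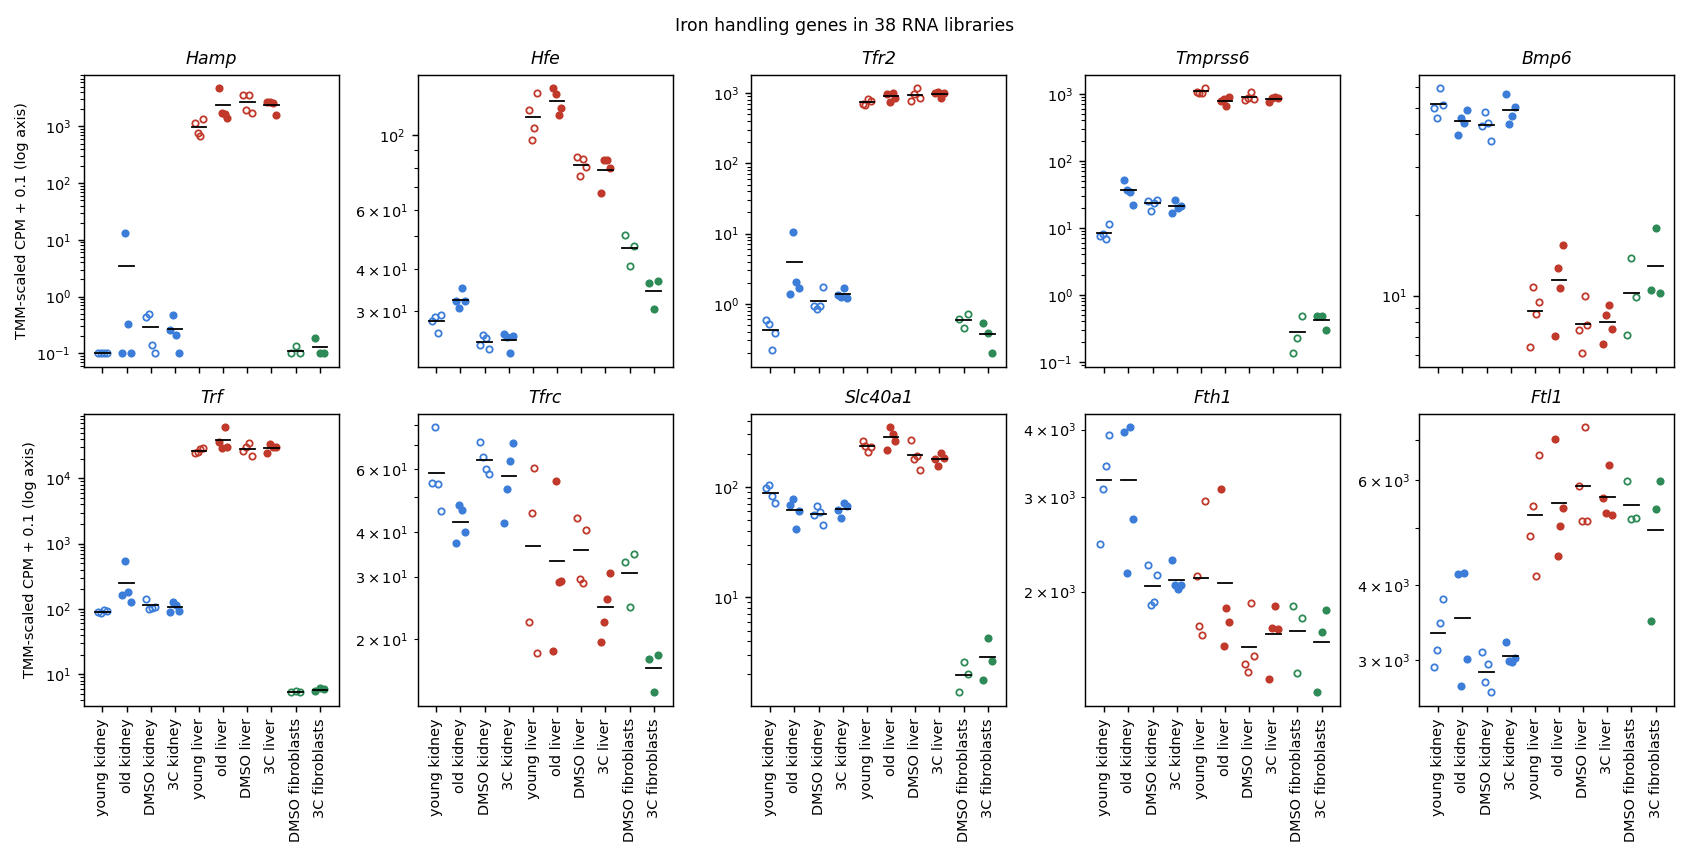
Level of each of the 10 genes in every RNA library, as TMM-scaled CPM plus 0.1 on a log axis, with 1 point per library and a bar at the group mean (kidney blue, liver red, fibroblasts green, open symbols for young and DMSO, filled for old and 3C). Hamp, Tfr2, Tmprss6 and Trf sit far above kidney and fibroblasts in all 16 livers, and Bmp6 sits highest in kidney.

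The hepcidin module was a liver module, apart from its ligand. Hamp was at 0 counts in all 4 young kidneys, and its young liver mean of 987 ± 311 CPM was at least 5620-fold above the level that 3 counts in a kidney library would give. Fibroblasts held at most 2 Hamp counts in any of 6 libraries. Tfr2, the receptor that senses loaded transferrin on hepatocytes, averaged 747 ± 69.3 CPM in young liver and 0.325 ± 0.160 CPM in young kidney. Tmprss6 averaged 1089 ± 96.9 CPM in young liver and 8.33 ± 2.09 CPM in young kidney. Hfe, the MHC class I-like protein lost in hereditary hemochromatosis, was broader, at 113 ± 16.1 CPM in young liver, 27.9 ± 1.55 CPM in young kidney and 46.0 ± 4.78 CPM in DMSO fibroblasts. Tests of liver against kidney called these 4 genes higher in liver in young, old and DMSO animals, with Hfe at 2.03 ± 0.14, 1.96 ± 0.13 and 1.72 ± 0.08 on the log2 scale. In old animals Tfr2 differed by 7.89 ± 0.83, and by 9.13 ± 0.35 without old kidney replicate 2, and Trf by 7.28 and 7.97.

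Bmp6 ran the other way. Its young kidney libraries stood at 49.96, 45.7, 59.2 and 51.1 CPM and its young liver libraries at 6.32, 10.7, 8.42 and 9.39 CPM. The groups did not overlap, as was so for 60.5% of all genes tested between young liver and kidney, and the log2 difference, liver minus kidney, was -2.55 ± 0.18 in young, -1.97 ± 0.23 in old and -2.51 ± 0.14 in DMSO animals (adjusted p = 9.18e-08, 5.59e-05 and 1.49e-08). Of Bmp6 exon bases, 7.88% overlap Txndc5 on the opposite strand, and reads there cannot be assigned by counting without strand. Bmp2, a related ligand made by liver endothelium, stood at 32.9 ± 1.51 CPM in young liver and 2.65 ± 0.718 CPM in young kidney. Hfe2, the gene for hemojuvelin, differed by 10.78 ± 0.37 on the log2 scale in young animals, higher in liver.

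Of the transport and export genes, Trf and Slc40a1 were higher in liver, and Tfrc was lower or did not pass. Trf, plasma transferrin, was the most abundant member in liver, at 26757 ± 2181 CPM in young liver and 91.0 ± 5.34 CPM in young kidney, and only 5.28 ± 0.0946 CPM in DMSO fibroblasts. Per kilobase of exon, the young liver mean was 11474 CPM for Trf, 5419 for Ftl1, 2426 for Hamp and 7.09 for Tfrc. Slc40a1 was higher in liver by 1.41 ± 0.15 in young, 2.18 ± 0.24 in old and 1.75 ± 0.19 in DMSO animals on the log2 scale, and was nearly absent from fibroblasts at 1.89 ± 0.602 CPM. Tfrc, the transferrin receptor of dividing and iron-hungry cells, was lower in liver than kidney in DMSO animals (-0.87 ± 0.14, adjusted p = 1.70e-04). In young animals its difference was -0.67 ± 0.32 (adjusted p = 0.0882), and -0.79 ± 0.20 (adjusted p = 0.00405) with the replicate number as a block. In old animals it was -0.37 ± 0.29 (adjusted p = 0.31). Leaving out young liver replicate 3 gave -1.01 (adjusted p = 0.0135), and leaving out old liver replicate 2 gave -0.73 (adjusted p = 0.016).

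Between tissues most genes differ, so these calls are read against a high background. Called genes made up 65.4% of those tested in young, 54.9% in old and 71.9% in DMSO animals, beside 9, 7 and 10 of the 10 members. The median log2 difference, liver minus kidney, was 1.72 over the members and -0.0777 over all genes in young animals. Scaling by total counts in place of TMM moved the median of all genes to -1.16 in young, -1.12 in old and -1.06 in DMSO animals, and the higher genes from 46.2%, 45.1% and 46.2% of those called to 13.1%, 11.8% and 13.1%. On that scale the Slc40a1 call in young animals (0.33, adjusted p = 0.0847) and the Ftl1 call in DMSO animals (0.0086, adjusted p = 0.952) were lost. Ftl1 turned to -0.42 in young animals and was called in that direction (adjusted p = 0.0287), and turned to -0.45 in old animals (adjusted p = 0.0882). Tfrc was called lower in liver in young (-1.74, adjusted p = 8.60e-04) and old animals (-1.41, adjusted p = 0.00596), and Fth1 in old animals (-1.73, adjusted p = 2.27e-04). The fixed list of 39 other iron gene names held 37 that were in the count table. Of 35 tested, 16 were higher and 14 lower in young liver. The list also holds Id1, Smad6, Smad7 and Atoh8, which report BMP-SMAD signaling and are part of these counts. Hpx, the heme scavenger of plasma, and Cp, the ferroxidase ceruloplasmin, led with Hfe2 among the higher ones, and the proximal tubule uptake receptors Cubn and Lrp2 and the ferroxidase Heph led the lower ones. Without old kidney replicate 2, old liver against kidney gave 1.93 for Hfe, -1.96 for Bmp6, 2.30 for Slc40a1 and -0.32 for Tfrc (adjusted p = 0.427).

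The ratio of the ferritin chains does not depend on scaling, because both counts come from the same library. It was chosen for study after the data had been seen. The 4 young kidneys held 1.19, 1.01, 1.01 and 0.970 Ftl1 counts per Fth1 count, and the 4 young livers held 2.26, 3.15, 2.50 and 2.24. Every liver lay above every kidney in young, old and DMSO animals, with means of 2.54 ± 0.423 against 1.05 ± 0.101, 2.72 ± 0.337 against 1.11 ± 0.0974 and 3.72 ± 0.277 against 1.40 ± 0.130. Each two-sided exact permutation test reached p = 0.0286, the smallest that 4 against 4 allows, or 0.0762 adjusted over the 8 ratio comparisons. DMSO fibroblasts stood at 3.25 ± 0.385. Neither age nor 3C separated the ratio, with exact permutation p from 0.314 to 0.6. Taken singly, Fth1 was lower in young liver than kidney by -0.59 ± 0.23 (adjusted p = 0.0359), a call lost in 6 of 8 single omissions. In DMSO animals it was lower by -0.40 ± 0.14 (adjusted p = 0.0247), a call lost in 5 of 8 (adjusted p from 0.0559 to 0.0964). With the replicate number as a block, Fth1 differed by -0.61 ± 0.15 in young (adjusted p = 0.00374) and -0.40 ± 0.17 in DMSO animals (adjusted p = 0.0558). In young animals Ftl1 was higher by 0.67 ± 0.19 (adjusted p = 0.00906). In old animals neither chain was called by edgeR. There DESeq2 called Ftl1 (0.63, adjusted p = 0.0129), and Fth1 was called without old liver replicate 1 (-0.89, adjusted p = 0.0401). Heavy ferritin carries the ferroxidase site and light ferritin aids core formation. Named pseudogenes exist for both (2 for Fth1 and 3 for Ftl1, none counted), so reads shared with them are uncertain.

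**Figure D2:**
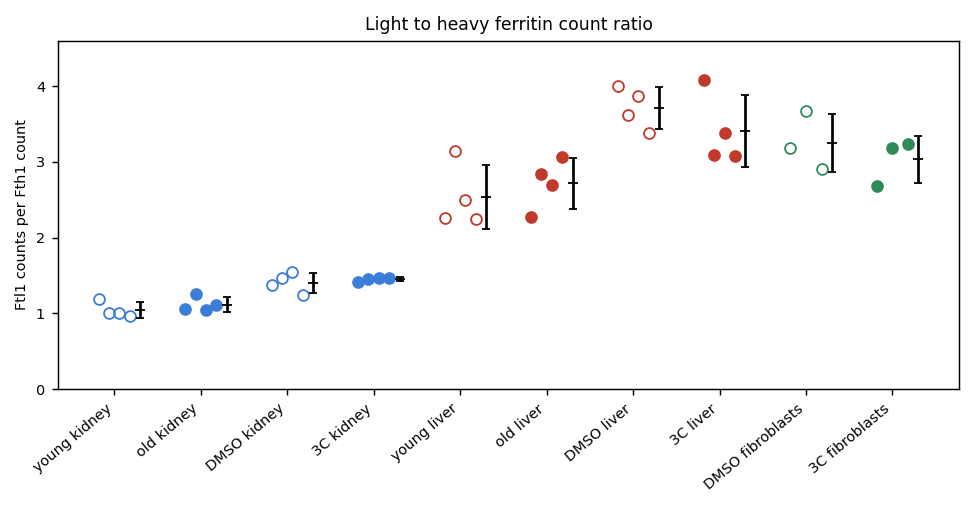
Counts of Ftl1 per count of Fth1 in each RNA library by group, with the group mean and SD as a bar to the right. Kidneys lie between 0.970 and 1.54, and livers and fibroblasts lie between 2.24 and 4.08.

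With age, 3 members rose in the kidney. Tmprss6 stood at 7.44, 7.90, 6.61 and 11.4 CPM in the young kidneys and at 52.1, 36.6, 33.7 and 22.0 CPM in the old ones. The groups did not overlap, and the rise was 2.17 ± 0.26 on the log2 scale, a 4.49-fold change (adjusted p = 0.00126). Without old kidney replicate 2 it was 2.14 ± 0.27 (adjusted p = 0.00171). Its share of total counts without TMM factors was 6.34% to 12.9% of the old liver mean in old kidneys, and 10.7% in replicate 2. On the CPM scale these values were 2.78% to 6.59%, and 4.64% in replicate 2. The part of liver transcripts in the level of that library was not tested.

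Tfr2 rose too, at far lower levels. Young kidneys held 0.484, 0.410, 0.117 and 0.289 CPM, from 2 to 11 counts, and old kidneys 1.27, 10.4, 1.97 and 1.57 CPM, from 31 to 355 counts. The highest value belonged to old kidney replicate 2. The rise was 3.58 ± 0.80 with it (adjusted p = 0.0187) and 2.30 ± 0.46 without it (adjusted p = 0.00988), so its size rested in part on that library. The call was lost without young kidney replicate 2 (adjusted p = 0.0589) or replicate 3 (adjusted p = 0.0655), and DESeq2 gave no p-value for it.

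Trf followed the same pattern. Young kidneys stood at 88.3, 85.5, 97.8 and 92.2 CPM and old kidneys at 164, 542, 179 and 127 CPM, with no overlap. The rise was 1.55 ± 0.42 (adjusted p = 0.0396) and shrank to 0.82 ± 0.12 without old kidney replicate 2 (adjusted p = 0.00306). As shares of total counts without TMM factors, Trf was at 3.21%, Tfr2 at 2.69% and Hamp at 1.37% of the old liver mean in that library, where the hepatocyte markers ran from 1.59% to 3.72%. On the CPM scale the values were 1.38%, 1.15% and 0.554%, and 0.651% to 1.59% for the markers. Hamp held 453 counts there against 0, 6 and 0 in the other old kidneys and was too low for the test. The Trf call was lost when any 1 of the 4 young kidneys was left out (adjusted p from 0.06 to 0.116).

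**Figure D3:**
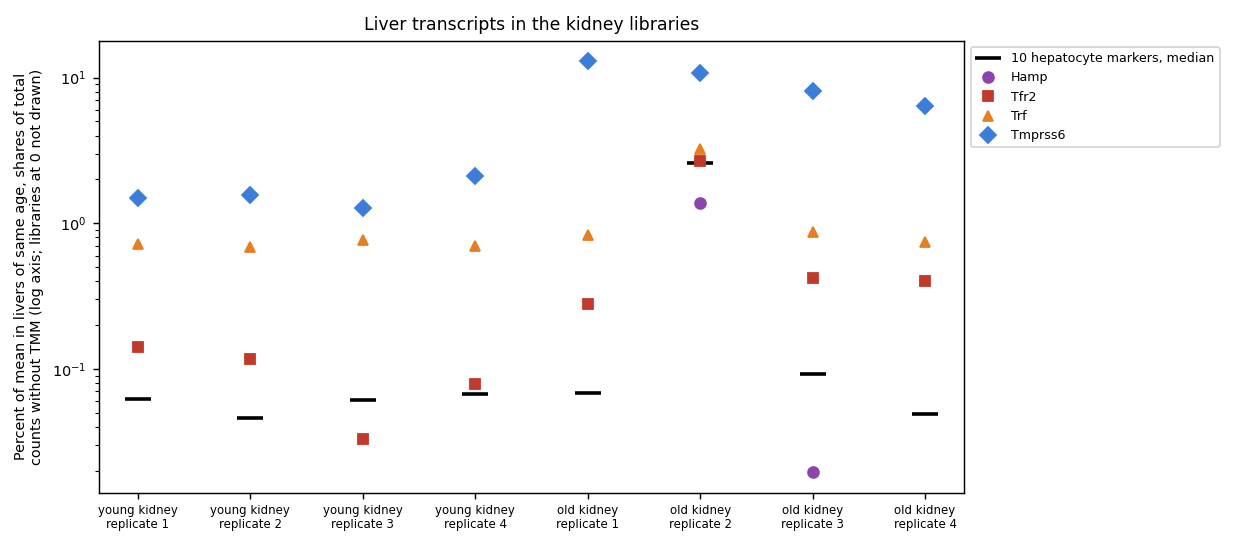
Share of total counts, without TMM factors, of 4 members and the median of 10 hepatocyte markers in each young and old kidney library, as a percent of the mean share in livers of the same age, on a log axis (libraries at 0 are not drawn). In old kidney replicate 2 Tfr2 and Trf lie beside the hepatocyte median of 2.57% and Hamp below it. Tmprss6 and Trf lie above the marker median in all 8 libraries.

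The rest of the kidney members did not pass. Hfe was higher in every old kidney than in any young one, by only 0.28 ± 0.09 (adjusted p = 0.087). DESeq2 called it (0.26 ± 0.10, adjusted p = 0.0391), as it did 20.7% of all genes. Slc40a1 stood at 97.6, 103, 82.1 and 70.8 CPM in young and 68.2, 78.3, 41.8 and 60.8 CPM in old kidneys, a difference of -0.43 ± 0.20 (adjusted p = 0.175) that reached -0.58 ± 0.19 and passed without replicate 2 (adjusted p = 0.048). Tfrc differed by -0.39 ± 0.17 (adjusted p = 0.149) and Bmp6 by -0.14 ± 0.12 (adjusted p = 0.462). Fth1 and Ftl1 differed by 0.05 ± 0.21 and 0.14 ± 0.16. Without replicate 2 these 4 stood at -0.46 (adjusted p = 0.077), -0.17, 0.19 and 0.23. With length and GC trends removed from the counts, Bmp6 at -0.37 (adjusted p = 0.0447) and Ftl1 at -0.34 (adjusted p = 0.0253) passed, Ftl1 with its direction turned, among 22.3% of all genes. The 3 calls among 9 tested members stand beside 11.5% of all genes called in this comparison, and the 4 calls without replicate 2 beside 23.7%, and levels higher in every old library were found for 4 of the 9 members and for 9.42% of all genes.

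Of 32 other iron genes tested in kidney, 3 rose and 2 fell, a share close to the 11.5% of all genes called. Lcn2, the siderophore-binding lipocalin and a marker of tubular injury, went from 2.66 ± 1.17 to 68.7 ± 47.7 CPM (4.79 ± 0.55, adjusted p = 0.00112). Cp rose by 1.61 ± 0.21 (adjusted p = 0.00168) and the ferrireductase Steap3 by 0.63 ± 0.16 (adjusted p = 0.0342). Aco1, iron regulatory protein 1, fell from 410 ± 22.6 to 247 ± 20.5 CPM (-0.67 ± 0.10, adjusted p = 0.003), and Heph fell by 1.03 on the log2 scale (adjusted p = 0.00786). Without replicate 2 all 5 passed, with Lcn2 at 4.92, Cp at 1.47, Steap3 at 0.73, Aco1 at -0.69 and Heph at -1.15. Cell type markers moved with these genes. The summed macrophage markers were 119.4 to 148.1 CPM in young and 584.6 to 1126 CPM in old kidneys, B and plasma cell markers 4.16 to 8.57 and 256.8 to 370.6 CPM, and proximal tubule markers 15900 to 21640 and 8660 to 17680 CPM, with all markers of the 3 lists detected. Their part in the kidney results was not tested.

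In the liver, age called none of the 10 members, against 2.46% of all genes. By edgeR 2 members had an unadjusted p under 0.05, as had 1846 of all 12537 genes tested. DESeq2 called 1 member, Hamp. Hamp stood at 1167, 768, 684 and 1331 CPM in young livers and at 4799, 1759, 1633 and 1383 CPM in old livers. The lowest old library lay above the highest young one, as for 5.87% of all genes tested, and the difference was 1.30 ± 0.41 (adjusted p = 0.141). DESeq2 gave 1.29 ± 0.40 (adjusted p = 0.026) and called 6.85% of all genes. Over all single omissions the difference ran from 0.70 to 1.52 without a call.

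Hamp2 stood at 1782, 825, 370 and 1833 CPM in young livers and at 1712, 1069, 39.5 and 395 CPM in old livers (-0.57 ± 0.82, adjusted p = 0.872). Hamp made up 39.6% to 64.9% of the counts of the pair in young livers and 62.2% to 97.6% in old livers. Sequences of the 2 genes are close, so reads that fit both may be lost or misplaced.

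The genes that report BMP-SMAD signaling did not pass in old liver. Id1 differed by 0.27 ± 0.48 (adjusted p = 0.91), Smad7 by -0.11 ± 0.23 (adjusted p = 0.925), Atoh8 by -0.21 ± 0.36 (adjusted p = 0.904) and Smad6 by 0.58 ± 0.21 (adjusted p = 0.214). Saa1, the acute phase gene induced through STAT3, rose by 6.31 ± 1.42 (adjusted p = 0.0446, or 0.0521 with total counts in place of TMM), from 67.5 ± 20.4 CPM to values between 79.8 and 16114 CPM. Of the other iron genes, 2 of 31 tested rose, beside 2.46% of all genes called in either direction. Hmox1, which opens heme to free its iron, rose from 35.9 ± 6.09 to 86.8 ± 15.0 CPM (1.29 ± 0.19, adjusted p = 0.00852), and Lcn2 rose by 6.37 ± 1.19 (adjusted p = 0.0222). Macrophage markers summed to 784.2 to 1216 CPM in young and 1209 to 2416 CPM in old livers, Kupffer cell markers to 591.2 to 990.3 and 880.2 to 1926 CPM, and B and plasma cell markers to 3.84 to 4.98 and 25.9 to 113.7 CPM. Their part in these differences was not tested.

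The remaining liver members did not pass either. Tmprss6 stood at 1081, 1031, 1015 and 1228 CPM in young and 777, 830, 660 and 895 CPM in old livers. Every old value was below every young one, as for 4.21% of all genes tested, and the difference was -0.45 ± 0.18 (adjusted p = 0.278). Trf differed by 0.58 ± 0.31, Bmp6 by 0.40 ± 0.27, Tfr2 by 0.29 ± 0.19, Slc40a1 by 0.29 ± 0.19, Hfe by 0.17 ± 0.16, Tfrc by -0.12 ± 0.40, Ftl1 by 0.08 ± 0.25 and Fth1 by -0.01 ± 0.28, with adjusted p from 0.451 to 0.997.

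**Figure D4:**
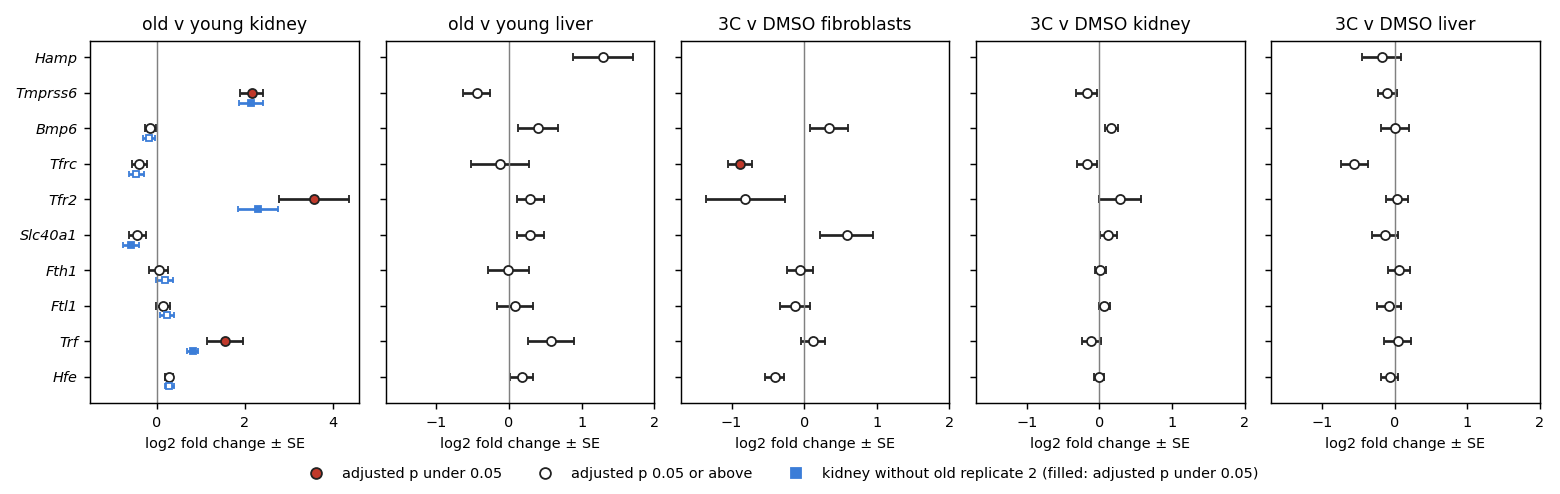
Log2 fold change ± SE of each member in the 5 age and 3C comparisons, with old over young or 3C over DMSO on the x axis and filled symbols for adjusted p under 0.05. Blue squares give the kidney fit without old kidney replicate 2, where Tmprss6 stays at 2.14, Tfr2 moves to 2.30 and Trf to 0.82, and members too low for a test have no symbol.

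The tissues were then compared directly in their response to age. The interaction, liver change minus kidney change, passed for Tmprss6 (-2.58 ± 0.34, adjusted p = 0.00132) and Tfr2 (-3.21 ± 0.78, adjusted p = 0.0483) among the members, beside 1.72% of all genes. Without old kidney replicate 2 these were -2.61 ± 0.34 (adjusted p = 0.00157) and -2.001 ± 0.36 (adjusted p = 0.0114). With the replicate number as a block the Tfr2 call was lost (-2.96 ± 0.77, adjusted p = 0.0938). Hmox1 differed the other way, by 1.30 on the log2 scale, with its rise in liver and a kidney difference of 0.04 ± 0.14, and by 1.23 without old kidney replicate 2 (adjusted p = 0.0247).

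Within livers, Hamp was set against 4 genes after removing group means. Over the 8 untreated livers its log2 level ran with Bmp6 at r = -0.77 (rho = -0.571, exact permutation p = 0.0799 and 0.208) and with Id1 at r = 0.696 (rho = 0.595, exact permutation p = 0.0747 and 0.167). It ran with Tfrc at r = -0.732 (rho = -0.69, exact permutation p = 0.0677 and 0.0764) and with Saa1 at r = 0.39 (rho = 0.405, exact permutation p = 0.714 and 0.472). Over the 8 DMSO and 3C livers the values of r were 0.454 for Bmp6, 0.445 for Id1, 0.0977 for Saa1 and -0.329 for Tfrc, with rho of 0.333, 0.381, 0.0476 and -0.476 and exact permutation p of r from 0.354 to 0.804. None passed after adjustment over the 8 relations, where the smallest adjusted p was 0.213. Without the 2 libraries farthest from the median, Hamp with Id1 in untreated livers fell to r = 0.162 and Hamp with Tfrc in DMSO and 3C livers moved to r = 0.325.

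A property of the libraries moved with Hamp and Tfrc. For each of the 16 livers, the deviation of 12466 genes from their group mean was ranked against exon length, which gave a length trend from -0.639 to 0.441. Hamp, with 407 bases of exon, was higher in libraries rich in short transcripts (r = -0.791, rho = -0.609, permutation p = 0.00459 and 0.0234, adjusted 0.00918 and 0.0234), and Tfrc, with 5149 bases, was lower (r = 0.682, rho = 0.641, permutation p = 0.0287 and 0.0117, adjusted 0.0287 and 0.0234, over 2 relations). Without the 2 libraries farthest from the median trend, r was -0.624 and 0.437. Because the trend is itself made from gene deviations ranked by length, short genes tend to fall along it and long genes to rise. How many genes of similar length ran as closely with it was not computed. With length and GC trends removed from the counts, the age difference of Hamp was 1.05 ± 0.21 and was called (adjusted p = 0.0228), among 4.64% of all genes. The length relation was chosen after the data had been seen.

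**Figure D5:**
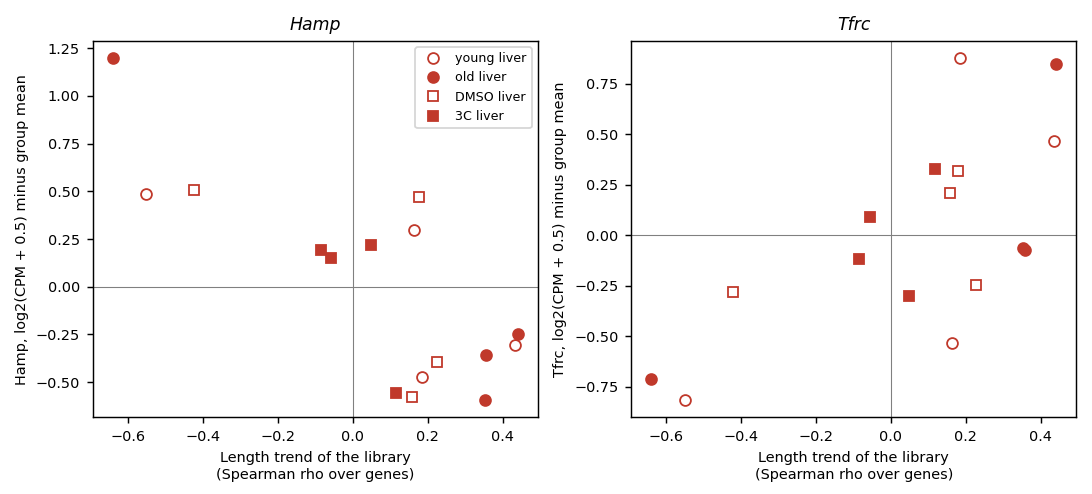
Log2 level of Hamp (left) and Tfrc (right) minus the group mean in 16 liver libraries, against the library's length trend, the Spearman rho between gene deviations and exon length. Hamp falls and Tfrc rises along the axis, and old liver replicate 1, with the highest Hamp, has the lowest trend at -0.639.

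The genes most like Hamp and Tfrc were sought by Pearson r of log2 CPM minus group means. Over 16 livers and 12035 genes, Snrpd2 (r = 0.88), Rps6kb2 (r = 0.877) and Nt5c (r = 0.869) were nearest to Hamp. Atoh8 came at rank 139 (r = 0.798), Smad6 at rank 1169 (r = 0.627), Hamp2 at rank 2158 (r = 0.493) and Smad7 at rank 4543 (r = 0.157). Id1 came at rank 1786 (r = 0.542), Saa1 at rank 3755 (r = 0.268) and Bmp6 at rank 8480 (r = -0.391). Of the other members, Ftl1 at rank 378 (r = 0.749) and Fth1 at rank 472 (r = 0.733) were nearest. Over all 38 RNA libraries and 13398 genes, Picalm (r = 0.769), Apob (r = 0.763) and Clock (r = 0.76) were nearest to Tfrc. The livers share the length trend described above, which was not computed for kidneys or fibroblasts, and the values carry no test.

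The 3C agent was compared with DMSO in 3 settings. In fibroblasts it called 1 of 8 tested members, beside 4.22% of all genes. Tfrc stood at 32.9, 24.5 and 34.6 CPM with DMSO and at 17.5, 14.1 and 17.98 CPM with 3C. Every 3C library was below every DMSO library, as for 13.5% of all genes tested, and Tfrc fell by 0.88 on the log2 scale (SE 0.16, adjusted p = 0.0157). The call was lost when DMSO replicate 3 (-0.78 ± 0.18, adjusted p = 0.0928) or 3C replicate 2 (-0.77 ± 0.18, adjusted p = 0.0752) was left out. Hfe was likewise lower in every 3C library (-0.41 ± 0.13, adjusted p = 0.104). Slc40a1 differed by 0.58 ± 0.36, Bmp6 by 0.34 ± 0.26, Trf by 0.12 ± 0.16, Fth1 by -0.06 ± 0.18, Ftl1 by -0.13 ± 0.21 and Tfr2, at 2 to 15 counts a library, by -0.81 ± 0.55. Of 30 other iron genes tested, Steap3 alone was called and rose from 21.1 ± 3.45 to 37.6 ± 7.46 CPM (0.84 ± 0.17, adjusted p = 0.0197). Macrophage markers summed to 222.2 to 290.2 CPM with DMSO and 84.6 to 134.2 CPM with 3C in these cultures, and fibroblast markers to 13240 to 18010 and 13500 to 17810 CPM. The part of the macrophage signal in the Tfrc difference was not tested.

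In kidney and liver of aged animals 3C called no gene of the table by edgeR, members included, so that the share called was 0% in kidney, 0% in liver and 0% for the interaction with tissue. Leaving out 3C kidney replicate 2 gave 4 genes higher and 25 lower in kidney, and leaving out 3C kidney replicate 1 gave 1 lower, none of them a member. At an unadjusted p under 0.05, edgeR gave 1786 genes in kidney, 436 in liver and 554 for the interaction, and DESeq2 called 214, 6 and 0. Among the members only Tfrc in liver had an unadjusted edgeR p under 0.05, and DESeq2 called none. Tfrc in liver stood at 43.6, 29.4, 28.6 and 40.4 CPM with DMSO and 19.6, 22.4, 25.9 and 30.6 CPM with 3C, with overlapping groups (-0.55 ± 0.18, edgeR unadjusted p = 0.0116, adjusted p = 0.9996). In kidney the difference was -0.17 ± 0.14, and the interaction of 3C with tissue was -0.40 ± 0.25 (edgeR unadjusted p = 0.124). Hamp stood at 3525, 1932, 3623 and 1701 CPM in DMSO livers and at 2738, 2694, 2611 and 1598 CPM in 3C livers (-0.18 ± 0.27). The other 8 liver members differed by -0.13 to 0.06, with SE from 0.11 to 0.20. The 8 other kidney members tested differed by -0.17 to 0.28, with Tfr2 the largest at 0.28 ± 0.29 on 17 to 43 counts a library.

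Promoter chromatin was read from the ATAC-seq peaks. A member counted as open where a peak called by the authors in that library lay within 1000 bases of any of its annotated starts. Young kidneys had 7 to 9 open members and old kidneys 8 each, and young livers had 9 to 10 and old livers 10 each. The mean differences, old minus young, were 0 and 0.333 members, with exact permutation p = 1 for both, where 3 against 3 allows no p below 0.1. No member gained or lost a peak in all libraries of an age, beside 0.17% of genes gained and 0.412% lost in kidney and 0.276% gained and 0.252% lost in liver.

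Tmprss6 had a promoter peak in all 6 livers and in no kidney, young or old, a pattern shared by 0.267% of genes. Its fold enrichment over background was 3.40 to 4.69 in young and 2.54 to 4.01 in old livers. No member was open in all 6 kidneys and no liver, as 1.05% of genes were. Hamp was open in all 6 livers, at 2.13 to 3.36, and in 2 of 6 kidneys, 1 young and 1 old, and Hamp2 in 3 of 6 livers and no kidney. Some of these peaks were weak by the peak caller's −log10 q. In livers it ran from 1.06 to 7.43 for Hamp and from 1.78 to 13.1 for Tmprss6. The 2 kidney peaks of Hamp stood at 1.53 and 2.02. Tfr2 was open in all livers and in 4 of 6 kidneys. Ftl1 lacked a called peak in 1 young liver. The other 6 members were open in all 12 libraries, as were 54.7% of all genes, with Tfrc enriched 5.12 to 12.7 times in kidneys and 3.83 to 7.04 times in livers. Enrichments were scaled within each library by the peak caller and were not compared between them.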

How the data were processed

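RNA-seq was available for 38 libraries in 10 groups and ATAC-seq for 12 libraries in 4 groups, grouped by the labels. The deposited gene counts were made by the authors from reads trimmed with Trimmomatic 0.39, aligned to mm10 with HISAT2 2.2.1 and counted with HTSeq 0.12.4 without strand, so reads from overlapping genes on opposite strands cannot be told apart. The deposited peak lists hold the authors' fold enrichment and −log10 q values from MACS2, called per library on reads aligned with Bowtie2 2.3.5.1. Entries for reads outside genes (8.16% to 28.8% of reads) were left out of library sizes. Untreated libraries were not tested against DMSO or 3C libraries, and levels of both printed side by side carry no comparison.

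The members and lists were chosen with earlier results of these data known. Counts were tested with edgeR 4.0.16 in R 4.3.3 (quasi-likelihood, TMM, filterByExpr with a minimum count of 10), on the 2 groups compared or all 4 for an interaction. Printed levels are CPM scaled by TMM factors over all RNA libraries, with no pseudocount; relations used log2(CPM + 0.5). Depth limits low genes, since 3 counts in a young kidney library amount to at most 0.176 CPM. DESeq2 1.42.0, other size factors, other filters, a fold criterion, a replicate block and single omissions were alternatives, and total-count scaling and removal of length and GC trends were added after the data had been seen. No 2 same-group libraries agreed within sampling noise (smallest chi-square per degree of freedom 8.15 over 54 pairs). Same-numbered young kidneys and livers deviated together in every pair (r from 0.104 to 0.452), and the labels do not say why. On simulated counts with 200 changed genes, the old against young kidney fit recovered 193, with 9 false calls among 14364 genes run. The changed genes were well counted, with a median fitted change of 2.01 on the log2 scale, and no library was set apart. Smaller differences, low genes and the effect of an outlying library are therefore not covered.

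Besides the members and Hamp2, the text names genes from a list of 39 names of other iron genes and BMP-SMAD targets. From it come up to 3 higher and 3 lower genes by smallest p per comparison. The text also names Id1, Smad6, Smad7, Atoh8 and Saa1 beside Hamp, and the 3 genes most like Hamp and Tfrc. Lcn2, Hmox1 or Bmp2 named elsewhere were chosen after their values were seen. Sequences came from RefSeq promoters (GRCm38.p6) and GENCODE vM21 transcripts (GRCm38), with protein sequences not used here. Permutation tests used scipy 1.17.1 in Python 3.11.15.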

Additional observations from a re-analysis of the deposited data

Results flagged for a closer look

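Single libraries stood apart from their group in 12 of 86 groups tested by the gap to the nearest library, where chance gives about 1 in 20. Genes of the same library are not independent, so the count is no test against that share. Old kidney replicate 2 was the highest for Hamp (13.2 CPM), Hamp2 (11.1 CPM), Tfr2 (10.4 CPM) and Trf (542 CPM), and its hepatocyte markers stood at a median 2.57% of the old liver mean as shares of total counts without TMM factors, or 1.05% with them. In livers, Hamp was highest in old replicate 1 (4799 CPM) and lowest in 3C replicate 4 (1598 CPM), Hamp2 was highest in DMSO replicate 3 (3071 CPM), and Tmprss6 was highest in DMSO replicate 3 (1075 CPM) and lowest in 3C replicate 1 (757 CPM). In kidneys, Tfr2 was highest in DMSO replicate 4 (1.63 CPM), Fth1 was highest in 3C replicate 1 (2286 CPM) and Hfe was lowest in 3C replicate 3 (22.4 CPM).

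The age effect differed between tissues, by edgeR's interaction test, for Tmprss6 (-2.58 on the log2 scale, liver minus kidney, adjusted p = 0.00132), Tfr2 (-3.21, adjusted p = 0.0483, or 0.0938 with the replicate number as a block) and Hmox1 (1.30, adjusted p = 0.00858).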

How the results depend on the processing

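Removing length and GC trends moved the members called with age in kidney from 3 to 5, beside 22.3% of all genes against 11.5%, and in liver from 0 to 1, beside 4.64% against 2.46%, and DESeq2 also called 1 in liver. The fold criterion moved the fibroblast count from 1 to 0. Over single omissions 1 to 4 members were called with age in kidney and 0 to 1 in fibroblasts, and calls over all genes moved too. The 4 came without old kidney replicate 2, beside 23.7% of all genes. Only 1 was called without young kidney replicate 2 (695 genes higher and 138 lower of 14633 tested) or replicate 3 (714 and 207 of 14721). In fibroblasts none was called without DMSO replicate 3 (97 and 58 of 13856) or 3C replicate 2 (144 and 85 of 13491). A stricter peak threshold moved the liver difference in open members to 1. The cause of these moves was not tested.

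Some directions turned, and 2 of the turned differences were called, both of Ftl1: with age in kidney and between young tissues. With length and GC trends removed, the age difference was -0.171 for Fth1 and -0.343 for Ftl1 in kidney and -0.0619 for Ftl1 in liver, and the 3C difference was 0.0189 for Hfe in kidney and 0.00041 for Tmprss6, 0.024 for Ftl1 and 0.0518 for Hamp2 in liver. Without TMM, the age difference of Fth1 in liver was 0.0278 (0.00954 with a mean of at least 1 CPM), the 3C difference was -0.0173 for Fth1 in kidney and -0.0157 for Bmp6 in liver, and Ftl1 in liver against kidney was -0.416 in young and -0.45 in old animals. The relation of Hamp with Tfrc in DMSO and 3C livers turned to r = 0.325 without the 2 libraries farthest from the median.

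Over single omissions the age difference of Fth1 ran from -0.0684 to 0.188 in kidney, and in liver from -0.28 to 0.231 for Fth1, -0.0692 to 0.248 for Ftl1 and -0.493 to 0.217 for Tfrc. The 3C difference ran from -0.181 to 0.0759 for Fth1 and -0.299 to 0.0731 for Ftl1 in fibroblasts, and in kidney from -0.0183 to 0.0542 for Fth1, -0.0277 to 0.033 for Hfe and -0.211 to 0.00265 for Trf. In liver it ran from -0.0904 to 0.134 for Bmp6, -0.00115 to 0.155 for Fth1, -0.144 to 0.0381 for Ftl1, -0.617 to 0.631 for Hamp2, -0.259 to 0.0656 for Slc40a1, -0.0526 to 0.148 for Tfr2 and -0.0557 to 0.146 for Trf.

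With the replicate number as a block, the calls of Trf with age in kidney (1.25, adjusted p = 0.08), Fth1 between DMSO tissues (-0.40, adjusted p = 0.0558) and Tfr2 in the age by tissue interaction (-2.96, adjusted p = 0.0938) were lost and Tfrc between young tissues was gained (-0.79); it changed no other member's call. Outside the young tissues the numbers were not shown to pair libraries, with pair correlations from -0.31 to 0.334.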
